A study of Mus musculus with 30 samples.

Results

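The 9 genes described here, Slc13a5, Slc7a11, Rxfp1, Efhd1, Coch, Egfl6, Dio2, Tnnt2 and Jchain, were picked from 30142 genes measured in the uterus because knockout and wild-type mice differed in them under vehicle. Every one of the 9 was found, each through 1 probe set that carries no other gene symbol, and Jchain was listed under its older name Igj. Uterine RNA of female mice, prepubertal at 21 days of age, was hybridised to 30 Affymetrix whole-transcript arrays, 3 in each of 10 groups. In 5 groups the mice were labelled Ex3aERKO (KO hereafter), a knockout of Esr1, the gene of estrogen receptor alpha, and in 5 they were wild type (WT). Within each genotype the groups had received 250 ng of estradiol (E2) in 100 ul of saline 2 h or 24 h before collection, or 50 ug of insulin-like growth factor 1 (IGF1) in PBS. IGF1 was injected once for the 2 h groups and 3 times for the 24 h groups, the last at 16 h, and the vehicle groups received 100 ul of saline once and were collected only at 24 h. All injections were intraperitoneal. Whether the 3 replicates of a group were separate animals is not in the labels, so the p-values cover the spread among these samples alone, and 3 arrays a group limit the precision.

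Estrogen receptor alpha is a nuclear receptor that binds DNA and changes transcription once estradiol occupies it. In the uterus it is the receptor through which estradiol drives growth of the epithelium and swelling of the stroma, and signals started by growth factors such as IGF1 can also act on it. The 9 genes encode unrelated proteins. They comprise membrane transporters (Slc13a5, which takes up citrate, and Slc7a11, the cystine and glutamate exchanger), a receptor for the pregnancy hormone relaxin (Rxfp1) and an enzyme that activates thyroid hormone (Dio2). The secreted products are Coch, a matrix protein best known from the inner ear, Egfl6, a matrix protein with EGF-like repeats, and Jchain, which joins antibody units into polymers. Efhd1 is a calcium-binding protein of mitochondria, and Tnnt2 is the troponin T of heart muscle.

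Promoter sequences of 8 of the 9 genes, from 250 bases before to 50 bases after the transcription start, were matched in RefSeq (build GRCm38.p6), and Rxfp1 had no entry. The estrogen receptor's core site GGTCA, the palindrome of that core site and its reverse complement with 3 bases between them, and the AP-1 site TGANTCA were searched on both strands. The core site, which every palindrome also contains, lay in the promoters of 2 of the 8 genes, against 40.5% of 32851 promoters of the same length. Neither the palindrome (0.07% of promoters) nor the AP-1 site (7.81%) was found in any of the 10 windows of the 8 genes. The sequences below are printed 5′ to 3′ along each gene's strand, the core site in capitals, for the pair of genes that hold it and for Coch and Dio2, the genes whose genotype difference varied most between treatments. The windows are chr11:72267112-72267411 on the minus strand, chr5:88527848-88528147 on the minus strand, chr12:51593091-51593390 on the plus strand and chr12:90738989-90739288 on the minus strand. In Slc13a5 the core site lies on the other strand, so that its reverse complement is in capitals, and starts at position -69, and in Jchain it starts at -242, counted from the transcription start.
Slc13a5: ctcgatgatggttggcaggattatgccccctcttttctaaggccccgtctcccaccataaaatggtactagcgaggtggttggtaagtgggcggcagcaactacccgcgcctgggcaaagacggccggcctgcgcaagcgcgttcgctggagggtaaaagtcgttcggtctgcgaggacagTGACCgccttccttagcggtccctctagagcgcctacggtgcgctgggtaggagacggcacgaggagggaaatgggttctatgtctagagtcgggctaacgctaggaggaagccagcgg
Jchain: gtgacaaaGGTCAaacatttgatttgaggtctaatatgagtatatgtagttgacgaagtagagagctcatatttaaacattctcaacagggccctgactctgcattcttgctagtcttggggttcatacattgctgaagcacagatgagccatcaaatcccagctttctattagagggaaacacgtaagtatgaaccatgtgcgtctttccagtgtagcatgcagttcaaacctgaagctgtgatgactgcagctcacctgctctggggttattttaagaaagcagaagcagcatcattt
Coch: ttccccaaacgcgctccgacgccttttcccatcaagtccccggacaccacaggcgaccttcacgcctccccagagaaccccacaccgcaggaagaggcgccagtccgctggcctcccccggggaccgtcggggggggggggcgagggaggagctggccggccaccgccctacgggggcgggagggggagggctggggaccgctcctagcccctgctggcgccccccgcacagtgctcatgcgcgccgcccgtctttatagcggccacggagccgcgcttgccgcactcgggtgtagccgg
Dio2: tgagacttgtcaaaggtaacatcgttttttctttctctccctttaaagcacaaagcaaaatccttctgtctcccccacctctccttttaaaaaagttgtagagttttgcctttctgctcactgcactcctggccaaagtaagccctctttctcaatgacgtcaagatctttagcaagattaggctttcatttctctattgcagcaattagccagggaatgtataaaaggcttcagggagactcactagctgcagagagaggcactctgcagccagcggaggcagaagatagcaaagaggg
A match describes these letters only. The absence of one says that the letters are not in this window.

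All values are the authors' deposited log2 values, in which a difference of 1 is 2-fold, and differences are KO minus WT ± standard error (SE) with n = 3 arrays in each group. A gene was called at an adjusted p below 0.05 in limma, adjusted by Benjamini-Hochberg over the 30142 genes. A floor of 5.69 to 6.57 per array, taken per array from its olfactory receptor genes (95th percentile), marked values that could not be told from background. Of 12 measured genes of the estrogen receptor and its classical targets, 2 were called higher and 9 lower in KO under E2 at 2 h, against 17.9% of all genes called. Their median difference was -2.61, against -0.01 over all genes. Esr1 itself ran from 9.38 to 10.41 on the 15 KO arrays and from 11.44 to 12.73 on the 15 WT arrays, but its probe set may lie outside the deleted exon, so this is a limited check of the genotype labels. WT vehicle replicate 1 stood apart from the rest. It had Xist, the RNA of the inactive X chromosome, at 10.16, against 17.01 to 18.12 on the other 29 arrays, and the lowest array weight of the 30, 0.166. The Y chromosome genes Kdm5d (5.13), Eif2s3y (5.39) and Uty (4.86) were below its floor of 6.5, as they were below the floor on every other array. The cause of the low Xist value was not tested. KO E2 24 h replicate 2 had the highest floor and a weight of 0.259.

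Because the genes were selected on the vehicle groups, their vehicle values are a description and were given no test. Under vehicle 879 genes (2.92%) were called, and nothing is read from the members' place among them. The count was 211 with only the 6 vehicle arrays in the fit. Slc13a5 was higher in KO by 3.84 ± 0.51, Coch by 3.49 ± 0.46, Efhd1 by 3.39 ± 0.31 and Tnnt2 by 3.12 ± 0.57, ranks 1, 2, 4 and 8 among genes higher in KO. Slc7a11 (-3.80 ± 0.41), Rxfp1 (-3.62 ± 0.35), Egfl6 (-3.18 ± 0.67) and Jchain (-2.89 ± 0.53) were lower, ranks 5, 9, 15 and 22 from the low end. Dio2 was the exception, at 8.46, 6.91 and 6.65 on the KO arrays and 8.71, 8.69 and 8.76 on the WT arrays, a difference of -1.38 ± 0.43 and rank 246. A large difference at baseline therefore described 8 of the genes and fitted Dio2 poorly. The rule names no threshold. Of the genes that are not among the 9, Tfcp2l1 (3.46 ± 0.42) lay between Coch and Efhd1, and Cxcl17 (3.07 ± 0.50) came just after Tnnt2. At the low end Cxcl15 (-4.23 ± 0.65) had a more negative difference than Slc7a11. Without WT vehicle replicate 1 the differences were 3.87 for Slc13a5, 3.28 for Coch, 3.52 for Efhd1, 3.11 for Tnnt2, -4.17 for Slc7a11, -3.85 for Rxfp1, -3.44 for Egfl6, -3.21 for Jchain and -1.38 for Dio2.

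The treated groups share no array with the vehicle groups and were tested. The members were, however, chosen with earlier results of these data known, so no test or count of the 9 can be taken as free of that choice. For Dio2, at rank 246 under vehicle, this limit weighs most. Under E2 at 2 h all 9 genes were called in the direction of the vehicle difference, where 17.9% of all genes were called. Under E2 at 24 h 8 of 9 were called, all in that direction, against 47.0% of all genes. IGF1 gave 8 of 9 at 2 h against 1.95% of all genes, and 6 of 9 at 24 h against 2.86%, again all in the vehicle direction. The shares over all genes are not a like comparison, since the 9 were chosen for a vehicle difference. Shares for genes with such a difference are given below. With only the 6 compared arrays in the fit, 3 of the 8 calls of IGF1 at 2 h were made, and those of Slc7a11 and Rxfp1 (adjusted p = 0.0540 each), Jchain (0.0614), Tnnt2 (0.208) and Coch (0.223) were not. The genes Slc13a5, Efhd1, Slc7a11, Rxfp1 and Jchain were called under both treatments at both times. The calls that were missed were Tnnt2 under E2 at 24 h, Egfl6 under IGF1 at 2 h, and Coch, Dio2 and Tnnt2 under IGF1 at 24 h. Where the genotypes are said below to lie apart over all arrays, the vehicle arrays that chose the genes are included. The share of all genes so separated was not counted.

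**Figure D1:**
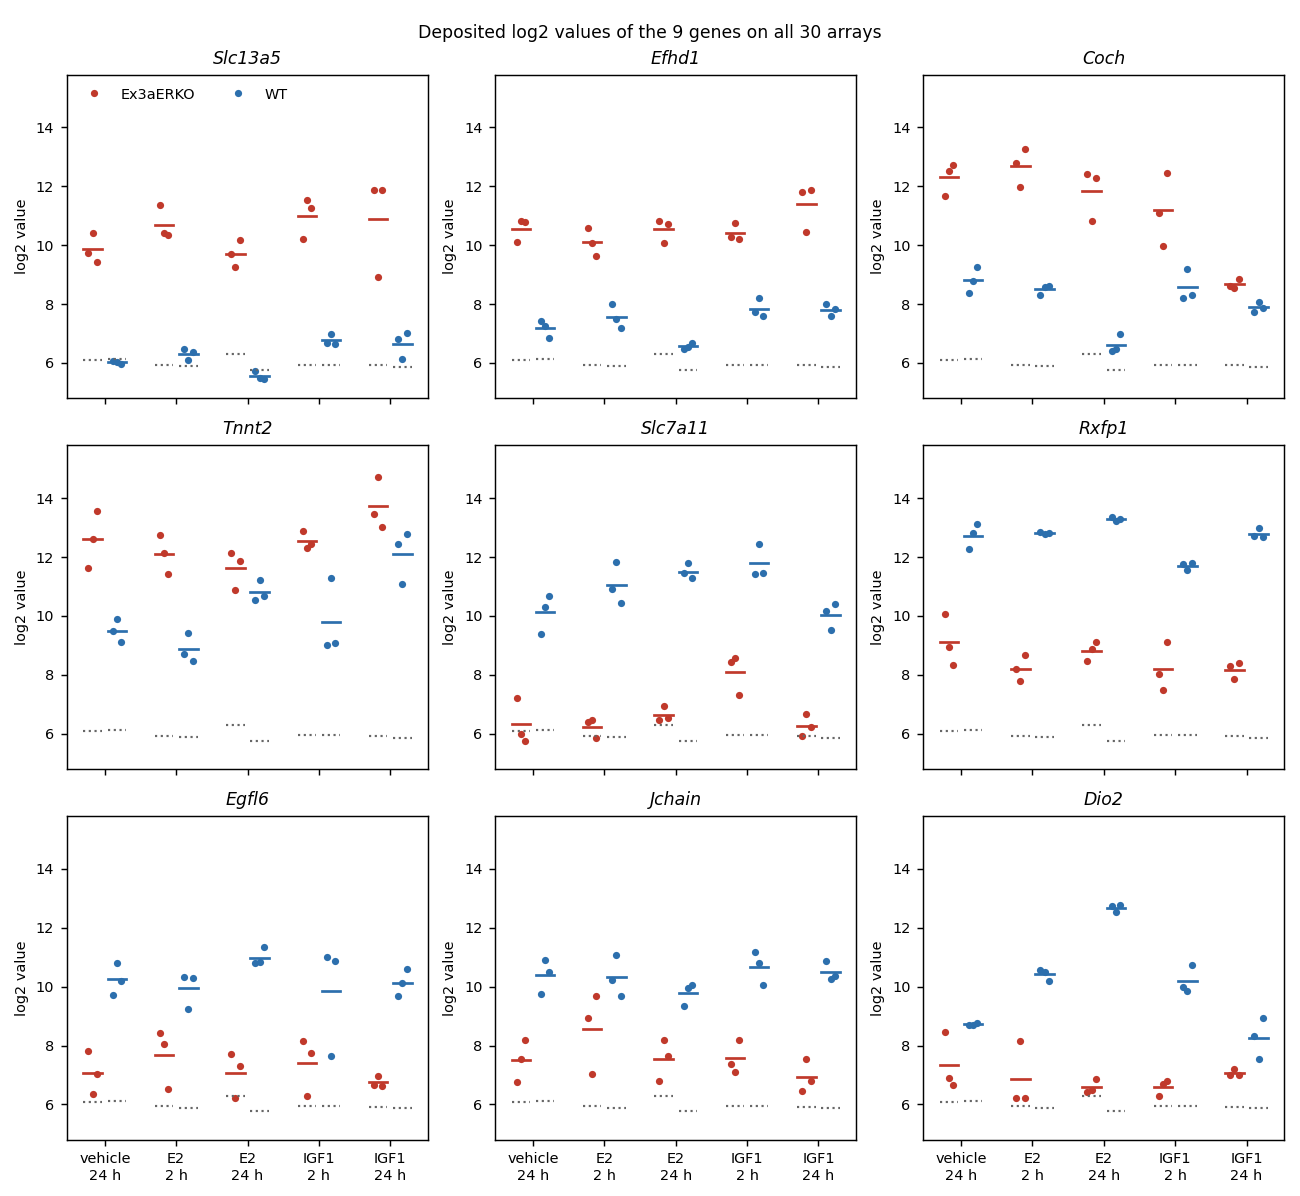
Deposited log2 values (vertical axis) of the 9 genes on each array, for KO (red, left) and WT (blue, right) in the 5 conditions, where points are arrays, solid bars are means of 3 arrays and dotted bars are the mean floor of the group. Slc13a5, Efhd1, Slc7a11 and Rxfp1 keep the genotypes apart on all 30 arrays, which include the vehicle arrays that chose the genes. Dio2 reaches its highest values in WT under E2 at 24 h and Coch its lowest KO values under IGF1 at 24 h.

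**Figure D2:**
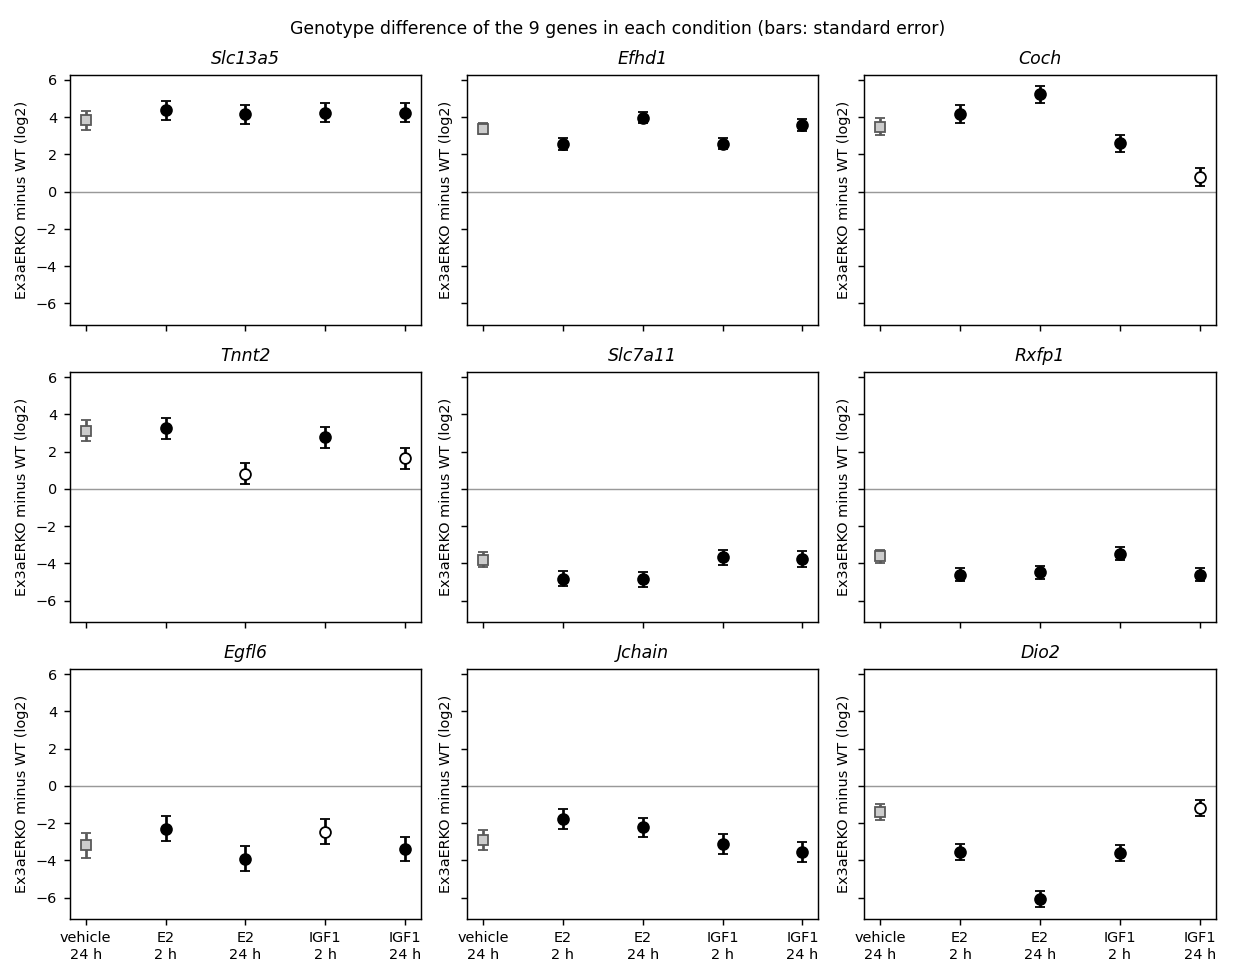
KO minus WT difference in log2 (vertical axis) with its SE for each gene in each condition, where the grey square is the vehicle difference that chose the genes, filled circles are called differences and open circles are differences that were not called. Slc13a5 is drawn at 3.84 to 4.38, but its WT mean was below the floor under vehicle and E2 at 24 h, which leaves only a bound there. Dio2 runs from -1.2 under IGF1 at 24 h to -6.09 under E2 at 24 h.

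Slc13a5, the sodium-coupled citrate transporter of the plasma membrane, was measured in KO and lay at or near background in WT. The KO arrays read 11.35, 10.40 and 10.34 under E2 at 2 h and 9.69, 9.27 and 10.17 at 24 h, against 6.48, 6.09 and 6.37, and 5.74, 5.47 and 5.46, on the WT arrays of the same conditions. Under IGF1 they read 10.22, 11.53 and 11.26 at 2 h and 11.88, 8.92 and 11.86 at 24 h, against 6.68, 6.97 and 6.65, and 6.81, 6.13 and 7.0, in WT. Every KO array lay above every WT array, and KO IGF1 24 h replicate 2 was well below the other arrays of its group. The difference was 4.38 ± 0.51 under E2 at 2 h (adjusted p = 7.56e-07), 4.16 ± 0.51 at 24 h (7.71e-07), 4.23 ± 0.51 under IGF1 at 2 h (3.43e-05) and 4.24 ± 0.51 at 24 h (2.80e-05), in limma over all genes. Under E2 at 24 h the WT mean of 5.56 was below its floor, so KO was at least 15.3-fold higher there, and at least 12.9-fold higher under vehicle. No change of the difference with time or between treatments was called in the 4 tests of such a change. Within KO the level at 24 h was -1.17 ± 0.51 under E2 relative to IGF1 (adjusted p = 0.0957), which was called without KO IGF1 24 h replicate 2 (-2.16, 0.000492). None of the 9 measured genes of citrate and dicarboxylate transport other than Slc13a5 was called under E2 at 2 h or under IGF1 at either time. At 24 h of E2, where 47.0% of all genes were called, 5 were called higher and 3 lower. Of those 5, Slc13a1 to Slc13a4 were below the floor in both genotypes. Cs, the citrate synthase of mitochondria, was lower in KO by -4.06 ± 0.52, Acly, which splits citrate in the cytosol, by -1.79 ± 0.62 and Aco1, a cytosolic aconitase, by -1.24 ± 0.21 (adjusted p = 1.45e-06, 0.0210 and 5.89e-05, limma). The relatives Slc13a1 to Slc13a4 stayed below the floor in the other conditions too.

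Efhd1, an EF-hand calcium sensor of the inner mitochondrial membrane, was higher in KO throughout. Its KO arrays ran from 9.65 to 11.89 (median 10.59) and its WT arrays from 6.48 to 8.19 (median 7.5), with no overlap over the 15 arrays of each genotype. The difference was 2.55 ± 0.31 under E2 at 2 h (adjusted p = 1.98e-06), 3.98 ± 0.31 at 24 h (1.57e-09), 2.58 ± 0.31 under IGF1 at 2 h (3.74e-05) and 3.57 ± 0.31 at 24 h (6.78e-07). It was larger at 24 h than at 2 h of E2 by 1.43 ± 0.44 (adjusted p = 0.0186). The WT arrays moved, at 6.48, 6.53 and 6.68 under E2 at 24 h and 8.00, 7.5 and 7.19 at 2 h, a fall by 1.0 ± 0.31 (adjusted p = 0.0186). The KO arrays overlapped between those times and differed by 0.43 ± 0.31 (95% interval -0.22 to 1.08). The change of the genotype difference was not called without WT E2 2 h replicate 1 (1.21, adjusted p = 0.0587) or without KO E2 2 h replicate 3 (1.2, 0.0519). Nor was the WT fall called without WT E2 2 h replicate 1 (-0.78, 0.116) or without WT E2 24 h replicate 1 or 2 (-0.96 and -0.98, 0.0561 and 0.0519). Within KO, Efhd1 at 24 h of IGF1 differed by 0.96 ± 0.31 from 2 h of IGF1 (0.0570) and at 24 h of E2 by -0.84 ± 0.31 from IGF1 (0.0568), and both were called without KO IGF1 24 h replicate 2 (1.42 and -1.31, 0.00458 and 0.00441). Of the 5 measured EF-hand and mitochondrial calcium genes, Efhd1 was the member called under IGF1 at both times. The list had 1 call higher and 1 lower under E2 at 2 h (17.9% of all genes called), and 2 higher and 3 lower at 24 h (47.0%). At 24 h of E2 its paralog Efhd2 was lower in KO by -1.43 ± 0.25 and Micu3, a regulator of mitochondrial calcium uptake, higher by 1.12 ± 0.15 (adjusted p = 9.52e-05 and 2.54e-06).

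Slc7a11, the light chain of the exchanger that brings in cystine for glutathione synthesis, was near background in KO except at 2 h of IGF1. The KO arrays read 6.40, 6.47 and 5.85 under E2 at 2 h and 6.45, 6.95 and 6.53 at 24 h, against 10.90, 11.84 and 10.45, and 11.46, 11.79 and 11.28, in WT. Under IGF1 they read 8.45, 8.56 and 7.32 at 2 h and 5.91, 6.67 and 6.22 at 24 h, against 11.44, 12.45 and 11.46, and 10.17, 9.53 and 10.42, in WT. The genotypes never overlapped, and both were lower at 24 h than at 2 h of IGF1. The difference was -4.82 ± 0.41 under E2 at 2 h (adjusted p = 5.81e-09), -4.86 ± 0.41 at 24 h (4.49e-09), -3.67 ± 0.41 under IGF1 at 2 h (1.94e-05) and -3.77 ± 0.41 at 24 h (1.30e-05).

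Within a genotype Slc7a11 was lower at 24 h than at 2 h of IGF1, by -1.84 ± 0.41 in KO (adjusted p = 0.00603, and 0.0713 with only the compared arrays) and by -1.75 ± 0.41 in WT (0.00491). The change of the genotype difference over those times was not called. At 2 h it was lower under E2 than under IGF1 in KO by -1.87 ± 0.41 (adjusted p = 0.0185), a call lost without KO E2 2 h replicate 3 (-1.68, 0.0629) or KO IGF1 2 h replicate 1 or 2 (-1.70 and -1.65, 0.128 and 0.147), or with only the compared arrays (0.547). In WT at 24 h it was higher under E2 than under IGF1 by 1.47 ± 0.41 (0.0228), a call lost without WT E2 24 h replicate 1 or 2 (1.49 and 1.33, 0.0522 and 0.103) or WT IGF1 24 h replicate 2 (1.21, 0.150), or after quantile normalization (1.22, 0.0609). Among the 14 measured genes of cystine uptake and glutathione, 4 were called lower and 1 higher in KO under E2 at 2 h, and 9 lower and none higher under E2 at 24 h. The shares called over all genes there were 17.9% and 47.0%. The list's median difference at 24 h was -1.19, against 0.18 over all genes. Gsr, which regenerates glutathione, was lower by -2.82 ± 0.22, the thioredoxin reductase gene Txnrd1 by -2.20 ± 0.22, the glutathione synthetase gene Gss by -1.38 ± 0.14 and Gclc, a subunit of the enzyme that starts glutathione synthesis, by -1.18 ± 0.20 (adjusted p = 1.85e-09, 3.44e-08, 8.74e-08 and 4.56e-05). Under IGF1 the list had 1 call at each time, Slc7a11 itself.

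Rxfp1, the main receptor of relaxin, which softens the pelvic tissues and acts on the uterus in pregnancy, was lower in KO on every array. The KO arrays ran from 7.48 to 10.07 (median 8.39), against 11.55 to 13.35 in WT (median 12.82). The difference was -4.61 ± 0.35 under E2 at 2 h (adjusted p = 6.31e-10), -4.47 ± 0.35 at 24 h (1.35e-09), -3.49 ± 0.35 under IGF1 at 2 h (8.60e-06) and -4.62 ± 0.35 at 24 h (5.96e-08). Within WT the arrays read 12.72, 12.99 and 12.69 at 24 h of IGF1, against 11.76, 11.55 and 11.79 at 2 h, without overlap. That WT difference of 1.10 ± 0.35 was called (adjusted p = 0.0356), but not when any 1 of the 6 arrays was left out (1.0 to 1.15, adjusted p = 0.0615 to 0.119), when arrays were centred on their medians (1.04, 0.0536) or after quantile normalization (1.02, 0.0696). Of 8 measured genes of the relaxin family, Rxfp2, the receptor of insulin-like peptide 3, was lower in KO under E2, at least 2.51-fold at 2 h and at least 1.46-fold at 24 h (adjusted p = 6.59e-09 and 4.26e-06). Its KO means of 5.0 and 5.42 there were below the floor, against 7.26 and 6.84 in WT, and in the other conditions both genotypes were below it. Under E2 at 24 h, where 47.0% of all genes were called, the list had 2 calls in each direction.

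Egfl6, a secreted protein made by several growing tissues, was lower in KO with wider spread. Its KO arrays ran from 6.23 to 8.44 (median 7.02) and its WT arrays from 7.66 to 11.34 (median 10.34). A single WT array made the ranges overlap: under IGF1 at 2 h the KO arrays read 8.17, 6.27 and 7.73, against 11.01, 7.66 and 10.87 in WT. That WT array, replicate 2, also had the highest mean log2 level of 6 adipocyte markers in its group (11.67, against 8.67 and 7.90). Their part in the Egfl6 value was not tested. The difference there was -2.46 ± 0.67 (adjusted p = 0.0551, 95% interval -3.83 to -1.08). It was called without WT IGF1 2 h replicate 2, the array at 7.66 (-3.55, 0.000779), without KO IGF1 2 h replicate 1 (-2.85, 0.0345), and with dim genes left out (0.0381), array weights (0.0313) or the replicate number as a block (0.0407). It was -2.29 ± 0.67 under E2 at 2 h (adjusted p = 0.0163), -3.90 ± 0.67 at 24 h (5.97e-05) and -3.39 ± 0.67 under IGF1 at 24 h (0.00481). The call at 2 h of E2 was lost without WT E2 2 h replicate 1 (-2.10, 0.0717), WT replicate 3 (-2.13, 0.0670) or KO replicate 3 (-1.71, 0.119). Of 7 measured EGF and MAM domain matrix genes and their integrins, Npnt, a basement membrane protein, was higher in KO under E2 at 2 h by 1.31 ± 0.29, and Itgb1, an integrin subunit, lower at 24 h by -1.77 ± 0.27 (adjusted p = 0.00196 and 1.71e-05). That list had 1 call in each direction under E2 at 2 h (17.9% of all genes called) and 2 in each at 24 h (47.0%).

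Jchain was lower in KO under each treatment, and no KO array reached a WT array of its own condition. The KO arrays ran from 6.45 to 9.67 (median 7.53), against 9.34 to 11.19 in WT (median 10.26), and the closest approach was under E2 at 2 h, with 8.95, 7.02 and 9.67 in KO and 10.23, 11.09 and 9.69 in WT. The difference was -1.79 ± 0.53 there (adjusted p = 0.0188), -2.23 ± 0.53 under E2 at 24 h (0.00174), -3.12 ± 0.53 under IGF1 at 2 h (0.00153) and -3.56 ± 0.53 at 24 h (0.000305). The first of these was not called without WT E2 2 h replicate 2 (-1.41, 0.114) or KO E2 2 h replicate 2 (-1.03, 0.196), or with only the 6 compared arrays in the fit (0.131). Of the markers that define antibody-making cells, Mzb1, Tnfrsf17, Pou2af1 and Irf4 had a mean below the floor in all 10 groups, and of 7 B cell markers at most 2 were above the floor on any array. Prdm1 and Sdc1 were above it in every group, and Derl3 in all but KO under E2 at 24 h. Prdm1 was higher in KO under E2, by 2.15 ± 0.23 at 2 h and 1.54 ± 0.23 at 24 h (adjusted p = 1.61e-07 and 9.06e-06, limma). Sdc1 was lower at 24 h of E2 by -0.66 ± 0.19 (0.00797). Antibody gene segments are described under other observations. The mean log2 level of the 8 plasma cell markers, Jchain among them, with 3 to 5 above the floor on each array, ran from 6.43 to 6.53 in KO and from 6.84 to 6.96 in WT under vehicle. The ranges were also apart under IGF1 at 2 h (6.20 to 6.46 in KO, 6.74 to 6.99 in WT) and 24 h (6.22 to 6.30, 6.75 to 6.86). They overlapped under E2 at 2 h (6.36 to 6.78, 6.57 to 6.90) and 24 h (6.46 to 6.64, 6.55 to 6.70). Jchain is 1 of the 8, so its own difference is part of these ranges. Under IGF1 it was the only 1 of the 8 called. The differences of the others ran from -0.42 to 0.17 at 2 h and from -0.55 to 0.33 at 24 h. The ranges are therefore no separate measure of plasma cells. Of 14 measured genes of antibody secretion, Jchain was the one called under IGF1 at either time. Under E2 the list had 2 calls higher and 3 lower at 2 h (17.9% of all genes called), and 3 higher and 5 lower at 24 h (47.0%). Pigr, the receptor that carries J-chain-bearing antibodies across epithelium, was higher in KO under E2 at 2 h by 2.84 ± 0.76 and lower at 24 h by -3.17 ± 0.76 (adjusted p = 0.00898 and 0.00184). Fkbp11, a folding factor of secretory cells, was lower under E2, at least 6.15-fold at 2 h and at least 4.99-fold at 24 h (1.28e-09 and 3.57e-09). Its KO means of 5.54 and 5.77 were below the floor, against 8.55 and 8.61 in WT.

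Dio2, the deiodinase that converts the prohormone thyroxine into active thyroid hormone inside cells, had the widest range of genotype differences. Under E2 the KO arrays read 6.22, 8.16 and 6.20 at 2 h and 6.42, 6.49 and 6.87 at 24 h, against 10.57, 10.50 and 10.19, and 12.75, 12.53 and 12.76, in WT. Under IGF1 they read 6.28, 6.69 and 6.80 at 2 h and 7.01, 7.19 and 7.0 at 24 h, against 9.98, 9.86 and 10.74, and 8.32, 7.53 and 8.95, in WT. The genotypes did not overlap in any treated condition. The highest of these KO arrays, replicate 2 at 2 h of E2, also had the highest mean level of 10 macrophage markers in its group (10.15, against 8.27 and 8.03). Their part in its Dio2 value was not tested. WT was highest at 24 h of E2 and lowest at 24 h of IGF1, while KO stayed low under both treatments. The difference was -3.56 ± 0.43 under E2 at 2 h (adjusted p = 1.30e-06), -6.09 ± 0.43 at 24 h (2.66e-10) and -3.60 ± 0.43 under IGF1 at 2 h (3.19e-05), and it was -1.2 ± 0.43 at 24 h of IGF1 (adjusted p = 0.154, 95% interval -2.08 to -0.32, and 0.0266 with array weights). In fold terms KO was 68.1-fold lower than WT under E2 at 24 h. The KO mean there, 6.59, was close to its mean floor of 6.29, and KO replicate 2 (6.49) was below its array's floor of 6.57.

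The change in the Dio2 difference was tested directly, with the limit on the choice of Dio2 given above. It widened under E2, at 24 h relative to 2 h, by -2.53 ± 0.60 (adjusted p = 0.00323), where 29.3% of all genes were called, and at 24 h it was wider under E2 than under IGF1 by -4.89 ± 0.60 (4.08e-06), where 24.3% were. Between E2 and IGF1 at 2 h no change was called, with a 95% interval of -1.21 to 1.29. From 2 h to 24 h of IGF1 the difference narrowed by 2.40 ± 0.60, which was not called (adjusted p = 0.188). In WT alone Dio2 was higher at 24 h than at 2 h of E2 by 2.26 ± 0.43 (adjusted p = 0.000229), lower at 24 h than at 2 h of IGF1 by -1.92 ± 0.43 (0.00292), and higher under E2 than under IGF1 at 24 h by 4.41 ± 0.43 (1.74e-07). In KO none of these contrasts was called. The treated KO means of 6.59 to 7.07 lay near the mean floors of 5.93 to 6.29, which left little room for a fall in KO. As a description, WT means exceeded the WT vehicle mean by 1.70 and 3.96 at 2 h and 24 h of E2 and by 1.47 at 2 h of IGF1, and lay -0.45 from it at 24 h. Of 12 measured genes of thyroid hormone handling, 1 was called higher and 2 lower under E2 at 2 h, and 3 higher and 1 lower at 24 h. The shares called over all genes were 17.9% and 47.0%. Thra, a thyroid hormone receptor, was higher in KO under E2 by 1.37 ± 0.18 at 2 h and 0.60 ± 0.18 at 24 h (adjusted p = 3.21e-06 and 0.00761), and Thrb, the other receptor, was lower under IGF1 at 24 h by -0.92 ± 0.23 (0.0259).

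Of the genes higher in KO, Coch had the genotype difference that varied most between treatments. The KO arrays read 12.80, 11.97 and 13.26 under E2 at 2 h and 12.41, 10.83 and 12.28 at 24 h, against 8.30, 8.57 and 8.63, and 6.42, 6.46 and 6.99, in WT. Under IGF1 they read 11.10, 9.98 and 12.47 at 2 h and 8.63, 8.56 and 8.86 at 24 h, against 8.20, 9.2 and 8.31, and 7.73, 8.06 and 7.88, in WT. The genotypes stayed apart in each condition, but at 24 h of IGF1 the KO values lay within those of WT under vehicle (8.38, 8.80 and 9.26). The difference was 4.17 ± 0.46 under E2 at 2 h (adjusted p = 4.15e-07), 5.22 ± 0.46 at 24 h (8.55e-09), 2.61 ± 0.46 under IGF1 at 2 h (0.00222) and 0.79 ± 0.46 at 24 h (0.511, 95% interval -0.16 to 1.75, and 0.0359 with only the compared arrays). At 24 h it was larger under E2 than under IGF1 by 4.42 ± 0.66 (adjusted p = 3.15e-05).

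Within KO, Coch was higher under E2 than under IGF1 at 24 h by 3.15 ± 0.46 (adjusted p = 8.36e-05) and lower at 24 h than at 2 h of IGF1 by -2.50 ± 0.46 (0.00150, and 0.0941 with only the compared arrays). In WT it was lower at 24 h than at 2 h of E2 by -1.88 ± 0.46 (0.00310), and the E2 to IGF1 difference at 24 h was -1.27 ± 0.46 (0.0903, and 0.00617 with only the compared arrays). At 2 h the genotype difference was larger under E2 than under IGF1 by 1.56 ± 0.66, which was not called with all arrays (0.239) and was called without KO IGF1 2 h replicate 3 (2.21, 0.0195). The E2 to IGF1 difference within KO at 2 h, 1.49 ± 0.46 (0.0814), was also called without that array (2.14, 0.00185). Of the 6 LCCL domain genes, the family of Coch, 2 were called higher and 2 lower in KO under E2 at 2 h, where 17.9% of all genes were called. Besides Coch these were Crispld2, lower by -3.64 ± 0.20, Dcbld2, lower by -1.63 ± 0.14, and Crispld1, higher by 1.23 ± 0.21 (adjusted p = 1.47e-12, 3.34e-09 and 0.000141). Coch was the only member called under E2 at 24 h (47.0% of all genes) and IGF1 at 2 h (1.95%). Under IGF1 at 24 h (2.86%) the only member called was Vit, lower by -0.74 ± 0.17 (adjusted p = 0.0146, limma).

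Tnnt2 stood higher in KO at 2 h of both treatments and was not called at 24 h of either. The KO arrays read 12.76, 12.15 and 11.44 under E2 at 2 h and 12.14, 10.88 and 11.85 at 24 h, against 8.72, 9.41 and 8.47, and 10.54, 11.21 and 10.68, in WT. Under IGF1 they read 12.89, 12.32 and 12.46 at 2 h and 13.48, 14.73 and 13.03 at 24 h, against 9.01, 11.30 and 9.07, and 12.46, 11.10 and 12.79, in WT. The WT arrays were higher at 24 h than at 2 h of E2 without overlap, and the genotypes overlapped at 24 h of E2. The WT array at 11.30, replicate 2 of IGF1 at 2 h, is the one whose adipocyte markers stood highest. The difference was 3.25 ± 0.57 under E2 at 2 h (adjusted p = 0.000174) and 2.77 ± 0.57 under IGF1 at 2 h (0.00802), and at 24 h it was 0.81 ± 0.57 under E2 (0.240, 95% interval -0.36 to 1.99) and 1.63 ± 0.57 under IGF1 (0.145, 95% interval 0.45 to 2.81). Without WT IGF1 2 h replicate 1 or 3 the call of IGF1 at 2 h was lost (2.37 and 2.41, adjusted p = 0.0760 and 0.0664), and it was lost with only the compared arrays (0.208).

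At 24 h relative to 2 h of E2 the Tnnt2 difference changed by -2.44 ± 0.81 (adjusted p = 0.0260). The call was lost without any 1 of 5 arrays, which were WT E2 2 h replicates 1 and 3, KO E2 2 h replicate 1, WT E2 24 h replicate 2 and KO E2 24 h replicate 2 (-2.37 to -2.07, adjusted p = 0.0517 to 0.0822), and after quantile normalization (-2.03, 0.0655). In WT alone Tnnt2 was higher at 24 h than at 2 h, by 1.95 ± 0.57 under E2 (0.0117) and, with overlapping arrays, by 2.33 ± 0.57 under IGF1 (0.00625, and 0.0719 with only the compared arrays). The E2 contrast was not called without WT E2 2 h replicate 3 or WT E2 24 h replicate 2 (1.75 each, 0.0548 and 0.0550). In KO it was lower under E2 than under IGF1 at 24 h by -2.12 ± 0.57 (0.0109), a call lost without KO E2 24 h replicate 2 (-1.75, 0.0752) or KO IGF1 24 h replicate 2 (-1.63, 0.0747). Of 12 measured troponins and tropomyosins, Tnnt1 and Tnnc2, both known from skeletal muscle, were called higher in KO under all 4 treatments, Tnnt1 by 1.06 ± 0.21, 1.5 ± 0.21, 1.09 ± 0.21 and 1.91 ± 0.21 and Tnnc2 by 1.65 ± 0.27, 1.22 ± 0.27, 1.04 ± 0.27 and 1.98 ± 0.27 (E2 at 2 h and 24 h, then IGF1 at 2 h and 24 h, adjusted p between 5.49e-06 and 0.0436). Under E2 at 24 h, where 47.0% of all genes were called, 4 of the 12 were called higher and 5 lower. Among the lower ones were Tpm4 (-1.2 ± 0.19, adjusted p = 3.45e-05) and Tpm2 (-0.98 ± 0.23, 0.00175), tropomyosins of smooth and non-muscle cells. Of 11 measured striated muscle markers, Tnnt2 not among them, 6 were above the floor in some group. The skeletal actin gene Acta1 was above it on 30 arrays, Ckm and Tnnc2 on 27 each, Mb on 11, Nppa on 5, Tnni3 on 4 and Myh6 on 2, while Myh7, Myl2, Ttn and Pvalb were on none. Their mean level was 6.07 to 6.26 in KO and 5.66 to 5.81 in WT under IGF1 at 24 h, where 3 were called higher in KO (Tnnc2, Myh6 and Myh7, the last below the floor in both genotypes). Under E2 at 24 h it was 5.86 to 5.98 in KO and 5.64 to 5.67 in WT. There 8 were called higher in KO, 6 of them below the floor in both genotypes, and 1, Acta1, lower, where 47.0% of all genes were called. The mean floor in that condition was also higher in KO (6.29, against 5.76 in WT). Marker level and background therefore cannot be told apart there. The ranges were 5.74 to 5.94 in KO and 5.62 to 5.88 in WT under vehicle. At 2 h they were 5.73 to 5.79 and 5.62 to 5.72 under E2 at 2 h, and 5.71 to 5.85 and 5.70 to 5.80 under IGF1 at 2 h. The part of striated muscle in the Tnnt2 values was not tested.

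**Figure D3:**
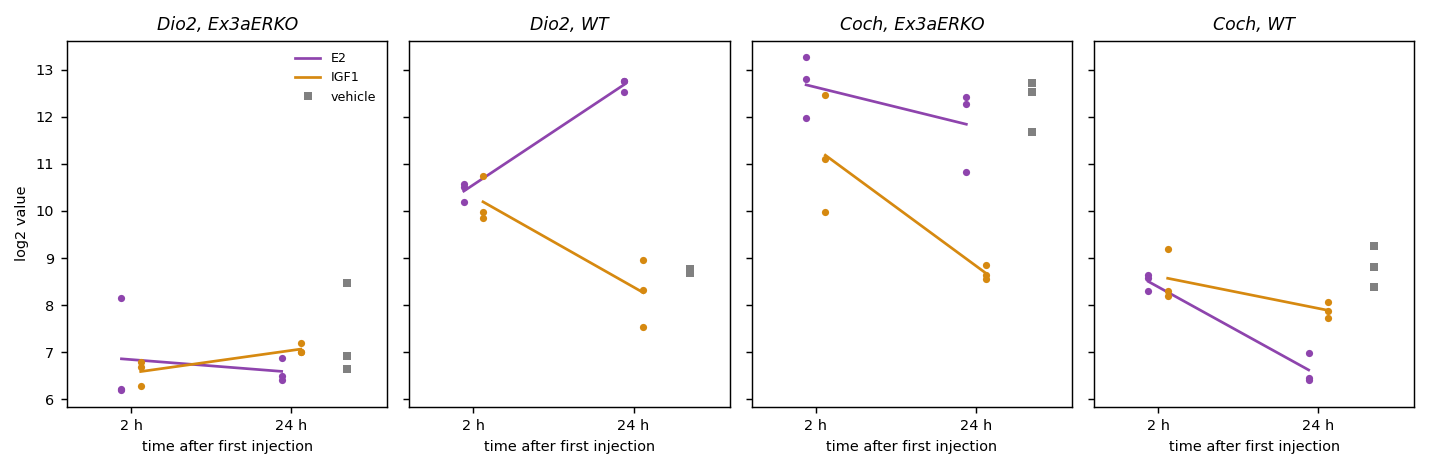
Deposited log2 values (vertical axis) of Dio2 and Coch by time after the first injection (horizontal axis) under E2 (purple) and IGF1 (orange), for KO and WT in separate panels, where points are arrays, lines join means of 3 arrays and grey squares are vehicle arrays, collected at 24 h. WT Dio2 reaches 12.53 to 12.76 under E2 at 24 h while KO Dio2 lies between 6.42 and 6.87, and KO Coch lies between 8.56 and 8.86 under IGF1 at 24 h.

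The counts of calls in these tests of change stand against the following backgrounds. For the genotype difference, 3 of the 9 genes (Efhd1, Dio2 and Tnnt2) changed between 24 h and 2 h of E2, where 29.3% of genes did, and 2 (Coch and Dio2) between E2 and IGF1 at 24 h, where 24.3% did. Both counts were near the share over all genes. None was called between 24 h and 2 h of IGF1 (0.0630% of genes) or between E2 and IGF1 at 2 h (3.93%). In KO, 1 of the 9 was called between E2 and IGF1 at 2 h (3.04% of genes), 2 at 24 h (21.5%), none between 24 h and 2 h of E2 (9.42%) and 2 between those times of IGF1 (8.98%). In WT, none was called between E2 and IGF1 at 2 h (5.57%), 3 at 24 h (10.1%), 4 between 24 h and 2 h of E2 (27.4%) and 4 between those times of IGF1 (14.5%). The WT calls at 24 h included Efhd1, which was lower under E2 than under IGF1 by -1.25 ± 0.31 (adjusted p = 0.0106).

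The 9 genes were set beside all genes that were called and differed at least 2-fold under vehicle, 220 higher and 178 lower in KO, 8 of the 9 among them. Under E2, 81.8% of the genes higher and 37.6% of those lower in KO were called in the same direction at 2 h, and 75.5% and 50.6% at 24 h. In the opposite direction 0.909% and 3.93% were called at 2 h, and 5.91% and 4.49% at 24 h. Under IGF1 the same-direction shares were 59.1% and 27% at 2 h and 45.5% and 56.2% at 24 h, with none opposite. Of the genes higher in KO, 64 (29.1%) were called in the same direction under E2 and IGF1 at both times, and of those lower in KO, 22 (12.4%) were. With only the compared arrays in each fit, the vehicle comparison included, these counts were 5 of 117 and 1 of 80. These genes, like the 9, were selected on the vehicle arrays, so the shares are a description. Slc13a5 and Efhd1 are among the 64, and Slc7a11, Rxfp1 and Jchain among the 22.

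**Figure D4:**
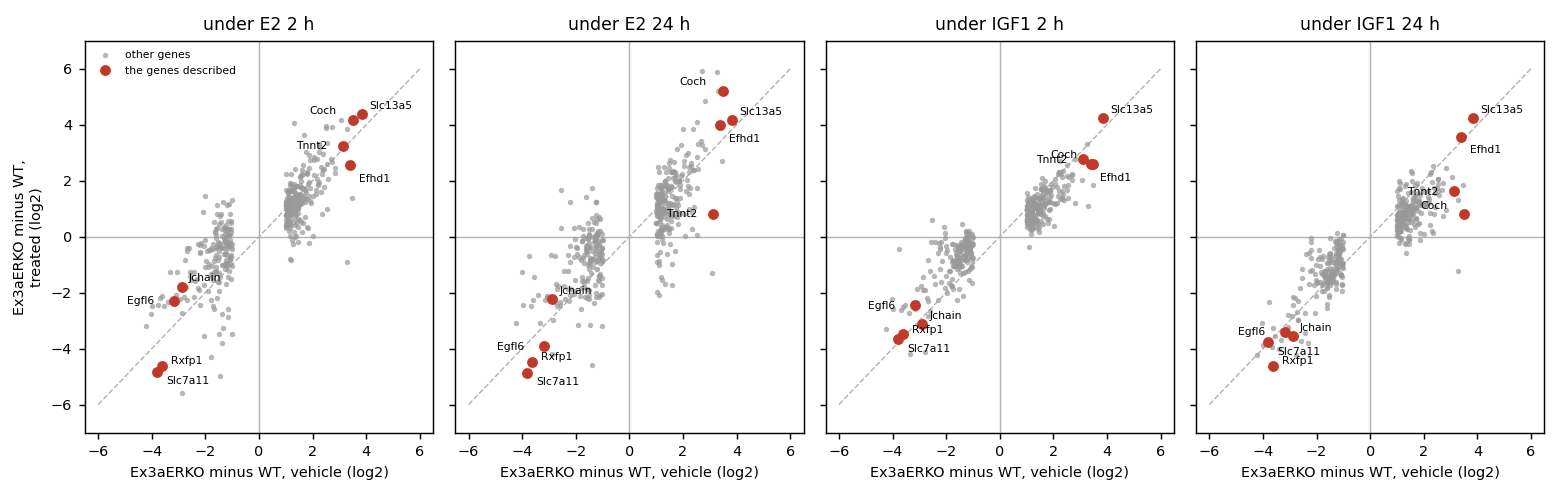
KO minus WT difference in log2 under each treatment (vertical axis) against that under vehicle (horizontal axis) for the genes called and at least 2-fold different under vehicle, in grey, with 8 of the 9 genes in red (Dio2 did not meet these limits) and equality dashed. Tnnt2 drops to 0.81 under E2 at 24 h and Coch to 0.79 under IGF1 at 24 h, while Slc13a5 and Slc7a11 stay close to the line or beyond it.

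Across the 10 group means, the genes of closest pattern to each member were found by Pearson's r among 2666 candidate genes. A candidate was above the floor in some group, and its group means had an SD of at least 0.5. Immunoglobulin segments, clones, predicted genes, microRNAs and other small RNAs had been removed beforehand. Jchain was therefore not compared with the antibody gene segments described under other observations. The 10 points share their arrays and 5 of them differ from the rest in genotype, so r is a description. Slc13a5 and Efhd1 were among each other's closest genes (0.972), beside Cobl (0.966) and Lpar3 (0.964) for Slc13a5 and Wnt11 (0.990) and Gnai1 (0.974) for Efhd1. Rxfp1 was closest to Rerg (0.988), Trpc4 (0.976) and Egfl6 (0.969), Slc7a11 to Pip4k2a (0.960), Msx2 (0.949) and Egfl6 (0.935), and Egfl6 to Pip4k2a (0.978), Rerg (0.976) and Cxcl15 (0.969). Coch was closest to Ccn2 (0.981), Apod (0.970) and Slc5a11 (0.965), and Jchain to Aldh1a1 (0.979), Fyn (0.970) and Plat (0.964). For Dio2 they were Ccl28 (0.986), Tmem100 (0.941) and Spon1 (0.939), and for Tnnt2 Prob1 (0.926), Pla2g4a (0.911) and Gap43 (0.905).

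Whole uterus was measured, so fewer cells of a type and less RNA per cell cannot be told apart for any of the 9 genes. The mean log2 level of 13 epithelial markers, 12 or 13 of them above the floor on each array, was higher in KO under vehicle (9.85 to 10.31, against 9.09 to 9.30 in WT), E2 at 2 h (10.14 to 10.71 against 9.23 to 9.76) and, under IGF1, at 2 h (10.22 to 10.75 against 9.60 to 9.77) and 24 h (10.22 to 11 against 9.64 to 9.81). Under E2 at 24 h it was lower in KO (9.29 to 10.48 against 11.35 to 11.38 in WT). In that condition the differences of the genes higher in KO under vehicle were 4.16 for Slc13a5, 3.98 for Efhd1, 5.22 for Coch and 0.81 for Tnnt2, the last not called. For 11 stromal markers, all above the floor, the level under E2 at 24 h was 10.04 to 10.60 in KO and 12.04 to 12.21 in WT, under E2 at 2 h 10.54 to 11.25 in KO and 9.95 to 9.99 in WT, and under vehicle 10.36 to 10.92 in KO and 10.96 to 11.44 in WT. Under IGF1 it was 9.95 to 10.93 in KO and 10.87 to 11.36 in WT at 2 h, and 11.29 to 11.6 and 11.82 to 12.05 at 24 h. For 10 smooth muscle markers, all above the floor, it was 10.53 to 12.16 in KO and 12.97 to 13.17 in WT under E2 at 24 h. Its ranges overlapped under vehicle (11.66 to 12.50, 11.90 to 12.69), E2 at 2 h (12.03 to 12.78, 12.33 to 12.61) and IGF1 at 2 h (12.48 to 13.41, 12.54 to 13.22) and 24 h (12.04 to 13.26, 13.17 to 13.53). The median difference of the 6 adipocyte markers was 0.67 under vehicle, 0.79 and 1.91 under E2 at 2 h and 24 h, and 0.81 and 1.01 under IGF1 at 2 h and 24 h. Of the 6, 3 were called higher in KO under E2 at 24 h, where 47.0% of all genes were called, and none elsewhere. The mean level of 10 macrophage markers, 7 to 10 above the floor, was 7.45 to 8.1 in KO and 8.37 to 8.62 in WT under vehicle. It was 7.76 to 8.08 and 8.5 to 8.77 under E2 at 24 h, and 8.18 to 8.36 and 8.49 to 9.02 under IGF1 at 24 h. Its ranges overlapped at 2 h of E2 (8.03 to 10.15, 8.24 to 8.54) and of IGF1 (7.57 to 8.26, 8.24 to 8.85). The part of cell makeup in the 9 differences was not tested.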

How the data were processed

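The deposited log2 values of 72688 probe sets on 30 arrays were used as the authors gave them. Per the labels' protocols, RNA was extracted with Trizol and an RNeasy clean-up, and 300 ng was amplified with the Affymetrix WT Plus kit. For the software and the normalization, details were not given in the sources used here. Array medians ran from 6.17 to 6.47, and arrays of a group correlated at a mean r of 0.974 to 0.994.

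Of the probe sets, 30604 carried 1 gene symbol, 2146 several and 39938 were not listed in the platform annotation; 827 symbols were updated through Entrez identifiers. This gave 30142 genes, 355 of them with several probe sets, of which the one of highest mean was kept. The floor of an array was the 95th percentile of 1225 olfactory receptor genes. Where the dimmer group's mean was at the floor, the fold is a lower bound, against the dimmer group's mean of the higher of value and floor on each array.

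A group-means model of all 10 groups was fitted in limma 3.58.1 (R 4.3.3) with empirical Bayes moderation (20 residual and 3.66 prior degrees of freedom) and Benjamini-Hochberg adjustment over all genes in each contrast. The procedure was tested on simulated data. No p is given for the members' vehicle difference, on which they were chosen; vehicle calls over all genes served as background and to choose the followed genes. The members, gene lists and tests were chosen with earlier results of these data known. Genes named are the 9 members, Esr1, the 3 genes of closest pattern to each member, and from each fixed list up to 4 members of largest difference; genes near the members' vehicle ranks were named after their values were seen.

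Alternatives were median centring, quantile normalization, leaving out dim genes, the mean of several probe sets, a trended robust prior, array weights, only the compared groups, no vehicle groups, the replicate number as a block, leaving out the 2 arrays that stood apart, and leaving out each array in turn.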

Additional observations from a re-analysis of the deposited data

Results flagged for a closer look

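For 4 of the genes the KO minus WT difference itself changed between times or treatments, by limma's test of that change adjusted over all genes. This was 3 of the 9 between times of E2, where 29.3% of all genes were called, and 2 of the 9 between E2 and IGF1 at 24 h, where 24.3% were. Both counts are near those shares, so they show nothing particular to the 9 genes. For Efhd1 it was larger at 24 h than at 2 h of E2 by 1.43 ± 0.44 (SE, adjusted p = 0.0186). For Dio2, the deiodinase, it was more negative at 24 h than at 2 h of E2 by -2.53 ± 0.60 (0.00323), and at 24 h it was more negative under E2 than under IGF1 by -4.89 ± 0.60 (4.08e-06). For Tnnt2 it was smaller at 24 h than at 2 h of E2 by -2.44 ± 0.81 (0.0260). For Coch, the matrix protein, it was larger under E2 than under IGF1 at 24 h by 4.42 ± 0.66 (3.15e-05). At 24 h IGF1 had been injected 3 times and E2 once, so agent and schedule cannot be told apart in the Coch and Dio2 contrasts. The members were chosen with earlier results of these data known, so these p-values, those of Dio2 most of all, cannot be taken as free of that choice. The Efhd1 change was not called without WT E2 2 h replicate 1 (1.21, 0.0587) or KO E2 2 h replicate 3 (1.2, 0.0519), and the Tnnt2 change was lost without any 1 of 5 arrays (-2.37 to -2.07, adjusted p = 0.0517 to 0.0822).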

How the results depend on the processing

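Of 1218 values of the 9 genes in tested contrasts recomputed under the alternatives, 1143 kept their direction and side of the threshold, 49 lost a call, 26 gained one and 0 reversed; the cause was not tested. Counts of the 9 genes called moved as follows. With the fit limited to the groups compared, which leaves fewer arrays to estimate the spread, they were 3 (8 with all groups) for KO against WT under IGF1 at 2 h, in KO 0 (1) for E2 against IGF1 at 2 h and 0 (2) for IGF1 at 24 h against 2 h, and in WT 1 (0) for E2 against IGF1 at 2 h, 6 (3) at 24 h and 7 (4) for E2 at 24 h against 2 h. The WT count for E2 against IGF1 at 2 h was also 1 with dim genes left out, without the vehicle groups and with array weights. In KO the count for E2 against IGF1 at 2 h was 2 with array weights and without the 2 arrays that stood apart, and at 24 h 1 (2) without those arrays.

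Counts over all genes moved too. For the change of the genotype difference between 24 h and 2 h of IGF1 (19), they were 7 with median centring, 10 with quantile normalization, 10 without the vehicle groups, 40 with array weights and 0 with only the compared groups. For KO, E2 at 24 h against 2 h (2839), they were 1646 with centring, 1109 with quantile normalization, 1371 with dim genes left out, 4 with only the compared groups, 4805 without the vehicle groups, 1886 with array weights and 378 without the 2 arrays. With only the compared groups they were 24 (589) for KO against WT under IGF1 at 2 h, 623 (1184) for the change between E2 and IGF1 at 2 h, and in KO 0 (916) and 3288 (6468) for E2 against IGF1 at 2 h and 24 h and 131 (2707) for IGF1 at 24 h against 2 h. With array weights they were 2536 (862) for KO against WT under IGF1 at 24 h, 1974 (1184) for the change between E2 and IGF1 at 2 h, and in WT 3893 (1679) and 5495 (3037) for E2 against IGF1 at 2 h and 24 h and 6904 (4375) for IGF1 at 24 h against 2 h. Without the 2 arrays KO against WT under IGF1 at 2 h gave 925 (589). Under E2 at 24 h KO against WT gave 11595 (14168) with median centring and 10352 with quantile normalization. It gave 10798 with only the compared groups and 15276 without the vehicle groups. Of those calls 38.2%, 51.1%, 51.5% and 60.8% were higher in KO (58.9%). Genes followed from vehicle and called in the same direction in all 4 treated comparisons numbered 5 of 117 (64 of 220) and 1 of 80 (22 of 178) with only the compared groups. Vehicle calls, which chose those genes, numbered 211 (879) with only the compared groups, 2444 with array weights, 470 without KO vehicle replicate 2 and 567 without WT vehicle replicate 3.

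Leaving out each array in turn gave 1 to 3 members (3) for the change between times of E2, 0 to 1 (0) for the change between E2 and IGF1 at 2 h, 2 to 4 (4) for WT E2 at 24 h against 2 h, and in KO 0 to 2 (1) and 1 to 3 (2) for E2 against IGF1 at 2 h and 24 h. Over all genes it gave 733 to 2199 for the change between E2 and IGF1 at 2 h, 270 to 956 and 352 to 860 for KO against WT under IGF1 at 2 h and 24 h, 2 to 137 for the change between times of IGF1, in KO 34 to 2922 and 3305 to 6423 for E2 against IGF1 at 2 h and 24 h, 99 to 3771 and 1483 to 3241 for 24 h against 2 h of E2 and IGF1, and in WT 1583 to 2626 for E2 against IGF1 at 24 h. Followed genes numbered 39 to 71 and 12 to 25. The count for KO, E2 at 24 h against 2 h, was 99 without KO E2 24 h replicate 2.

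With the replicate block, KO against WT gave 9, 8, 9 and 6 members under E2 at 2 h and 24 h and IGF1 at 2 h and 24 h, and 5332, 14048, 552 and 862 genes. Egfl6 under IGF1 at 2 h was the member call it changed (adjusted p = 0.0407). Samples of the same number correlated at 0.174 to 0.476 under vehicle but at -0.175 to 0.146 under the treatments, and 4, 2, 0, 3 and 0 of 6 samples (vehicle, E2 at 2 h and 24 h, IGF1 at 2 h and 24 h) correlated best with their own number, so the numbers were not taken to pair the samples. Slc13a5 in WT lay near the floor, which bounds its folds.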

Other observations

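Antibody gene segments stood beside Jchain at the low end of the vehicle comparison. Of the 12 genes lowest in KO relative to WT under vehicle, 7 were immunoglobulin variable segments, a group singled out after its values were seen. Their KO minus WT differences ran from -4.49 to -3.54 under vehicle, from -2.77 to 0.27 under E2 at 2 h, from -2.85 to -1.25 under E2 at 24 h, from -3.34 to -0.18 under IGF1 at 2 h and from -5.76 to -3.09 under IGF1 at 24 h. The SD within a group of 3 arrays reached 3.98 under vehicle for these segments, and segments share sequence, so their probe sets are not independent of each other.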
